A study of Mus musculus with 12 samples.

Results

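The 33 genes described here mark the projection neurons of the striatum, the medium spiny neurons, and were measured in tissue punches labelled as medial prefrontal cortex of the mouse. They were taken from a fixed list by gene name, and each was found among the 55678 gene names of the expression table. All 33 reached 1 TPM in at least 3 of the 12 libraries, the filter that left 16423 genes to test. TPM is a transcript abundance corrected for transcript length and scaled to the same total in every library, here 1000000.

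The 12 libraries came from 12 mice in 4 groups of 3. One strain was C57BL/6JmsSlc, written B6 here, and the other was BALB/cCrSlc, written BALB/c. Both are inbred lines, and the labels name no engineered allele. In each strain, 3 mice were handled without restraint (controls) and 3 underwent chronic restraint stress (CRS), in which a mouse was confined to a restrainer for 6 h a day over 21 days. All mice were described as 9 to 10 weeks old, and all had passed behavioural tests before a punch of 1.5 mm was taken. Libraries are named here by the animal number of the labels: control animals 2, 3 and 9 and CRS animals 12, 13 and 14 in B6, and control animals 5, 9 and 10 and CRS animals 12, 13 and 15 in BALB/c. The same number in both strains is not the same mouse. The labels give no sex, litter or processing batch, so p-values measure the spread between these animals only.

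Medium spiny neurons are inhibitory cells that make up most of the striatum and form 2 output pathways. Those of the direct pathway carry the D1 dopamine receptor with substance P and dynorphin, and those of the indirect pathway carry the D2 dopamine receptor and an adenosine receptor (Adora2a) with enkephalin. In both, receptors act through G proteins, whose subunits include Golf, and then adenylyl cyclase and cyclic AMP, on a phosphatase inhibitor encoded by Ppp1r1b. Several of these genes are also made in the cortex: Foxp1, Foxp2 and Bcl11b mark deep-layer neurons, and Penk, Tac1 and Pdyn occur in subsets of cortical cells.

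Across the series, 14805 to 15542 genes reached 1 TPM per library and mitochondrial transcripts took 17.35% to 23.88% of TPM. Cortical excitatory neuron markers were present throughout: Slc17a7, the vesicular glutamate transporter of cortical neurons, lay between 390.4 TPM in B6 CRS animal 12 and 1074 TPM in B6 control animal 9. TPM keeps no read depth, so the depth is unknown and no counting error can be given.

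The summed TPM of the 33 genes separated single animals within groups as well as the strains. It was 4886, 1048 and 675 in B6 control animals 2, 3 and 9, and 4130, 3151 and 2036 in B6 CRS animals 12, 13 and 14. In BALB/c it was 638, 871 and 534 in control animals 5, 9 and 10, and 511, 609 and 678 in CRS animals 12, 13 and 15. All 3 B6 CRS animals and B6 control animal 2 were above the highest BALB/c animal by more than the whole BALB/c range, B6 control animal 3 was a little above it, and B6 control animal 9 lay inside that range. In bulk tissue of this kind, fewer cells of a type, less RNA per cell and a different punch placement cannot be told apart. None of these was tested.

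**Figure D1:**
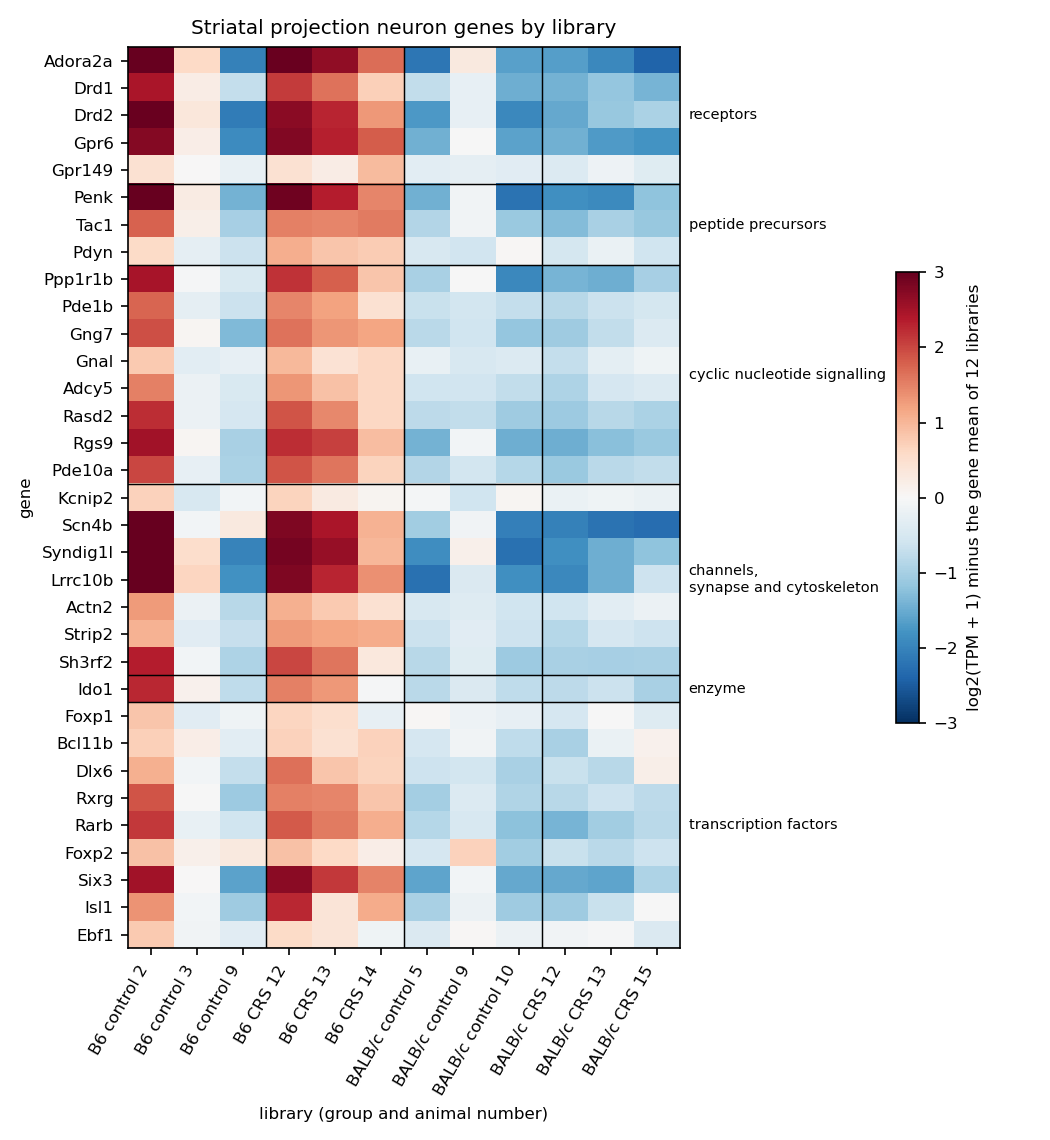
Colour shows log2(TPM + 1) of each gene (rows, grouped by role) minus its mean over the 12 libraries (columns, by group and animal number), with the colour scale ending at 3 and -3 so that more extreme values share the end colours. B6 control animal 2 and the 3 B6 CRS animals are red for nearly all genes, and B6 control animal 9 resembles the BALB/c animals.

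Among the receptors, Drd1 (chr13:54051183-54055705, minus strand, GRCm38), the D1 dopamine receptor, stood at 91.4, 18.8 and 9.42 TPM in B6 control animals 2, 3 and 9 and at 72.1, 51.8 and 26.9 TPM in B6 CRS animals 12, 13 and 14. In BALB/c it stood at 9.26, 13.5 and 5.21 TPM in controls and at 5.39, 6.61 and 5.45 TPM after CRS. Only the B6 controls overlapped the BALB/c animals, through animal 9.

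Drd2 (chr9:49340627-49408177, plus strand), the D2 dopamine receptor, stood at 69.1, 10.2 and 1.09 TPM in B6 controls and at 57.6, 42.3 and 21.0 TPM in B6 CRS animals. The BALB/c animals held 1.68, 6.50 and 1.34 TPM as controls and 2.07, 3.08 and 3.61 TPM after CRS. B6 control animal 9 was the lowest of all 12 libraries. Adora2a (chr10:75316877-75334784, plus strand), the adenosine receptor that raises cyclic AMP in indirect pathway cells, gave 117, 13.6 and 1.36 TPM in B6 controls and 74.9, 60.3 and 30.2 TPM in B6 CRS animals. The BALB/c values of Adora2a were 1.14, 10.9 and 2.12 TPM in controls and 2.08, 1.55 and 0.84 TPM after CRS, so BALB/c control animal 9 stood apart from the other 5 BALB/c animals. Gpr6, an orphan receptor that raises cyclic AMP, reached 1 TPM in 1 of 6 BALB/c libraries, and Gpr149, another orphan receptor, in none.

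Penk and Tac1, both peptide precursors, were the most abundant transcripts of the indirect and direct pathway lists. Penk (chr4:4133531-4138819, minus strand), which encodes the enkephalin precursor, stood at 1182, 156 and 48.4 TPM in B6 controls and at 1002, 672 and 368 TPM in B6 CRS animals, against 47.7, 122 and 27.6 TPM in BALB/c controls and 36.0, 34.1 and 56.5 TPM in BALB/c CRS animals. The 3 B6 CRS animals and B6 control animals 2 and 3 were above every BALB/c animal. Tac1 (chr6:7554879-7565834, plus strand), the precursor of substance P, was even among the B6 CRS animals, at 160.1, 156 and 165 TPM, and uneven among the B6 controls, at 192, 62.7 and 27.6 TPM. In BALB/c Tac1 lay between 22.0 and 51.6 TPM. Pdyn (chr2:129686565-129699844, minus strand), the dynorphin precursor, differed least between animals of this role, with 35.4, 19.5 and 14.9 TPM in B6 controls, 51.8, 43.1 and 40.6 TPM in B6 CRS animals and 15.2 to 24.3 TPM in BALB/c. Its 3 B6 CRS animals were the highest of the 12.

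The 8 genes of cyclic nucleotide signalling had the largest share of the summed TPM. Ppp1r1b (chr11:98348404-98357796, plus strand), the dopamine-regulated phosphatase inhibitor, stood at 788, 139 and 103 TPM in B6 controls and at 643, 497 and 253 TPM in B6 CRS animals. BALB/c animals held 72.4, 142 and 36.2 TPM as controls and 53.4, 50.9 and 70.2 TPM after CRS. Pde1b, a calmodulin-dependent phosphodiesterase, spanned 70.1 to 375 TPM in B6 and 61.2 to 76.0 TPM in BALB/c. Gng7, a G protein gamma subunit, spanned 35.4 to 346 TPM in B6 and 39.9 to 67.6 TPM in BALB/c. Gnal, which encodes Golf, varied less, from 67.7 to 166 TPM in B6 and from 51.1 to 76.5 TPM in BALB/c. Rgs9, which speeds the shut-off of G proteins, Rasd2, a small GTPase, Pde10a, a phosphodiesterase, and Adcy5, the main striatal adenylyl cyclase, stood at 131 to 194 TPM in B6 control animal 2 and at 15.1 to 51.9 TPM in B6 control animals 3 and 9.

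Of the 7 genes of channels, synapse and cytoskeleton, Scn4b, an accessory subunit of sodium channels, stood at 174, 16.2 and 21.3 TPM in B6 controls and at 126, 97.6 and 36.2 TPM in B6 CRS animals. Its BALB/c values were 7.76, 15.8 and 3.36 TPM in controls and 3.47, 2.91 and 2.72 TPM after CRS. Every BALB/c animal was below every B6 animal. Kcnip2, a partner of A-type potassium channels, stood between 43.7 and 107 TPM across the series. Strip2, a subunit of a phosphatase and kinase complex, stood at 20.7, 7.35 and 5.56 TPM in B6 controls, at 24.5, 23.2 and 22.1 TPM in B6 CRS animals and at 4.82 to 7.40 TPM in BALB/c. Syndig1l and Lrrc10b followed the receptors, with 109 and 91.3 TPM in B6 control animal 2 against 1.48 and 1.71 TPM in B6 control animal 9. Actn2, a cytoskeletal alpha-actinin, spanned 6.14 to 29.9 TPM over the 12 libraries. Sh3rf2 and Ido1, the latter an enzyme that degrades tryptophan, reached 1 TPM in 5 of 12 libraries each, none of them BALB/c.

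Among the 9 transcription factors, Foxp1 stood at 77.2, 33.9 and 39.4 TPM in B6 controls, at 67.6, 61.5 and 36.5 TPM in B6 CRS animals and at 30.4 to 44.3 TPM in BALB/c, so the strains overlapped. Bcl11b, needed for medium spiny neurons to mature, spanned 22.2 to 46.5 TPM in B6 and 13.7 to 30.8 TPM in BALB/c. Dlx6, a homeobox factor of forebrain inhibitory neurons, spanned 9.05 to 50.7 TPM in B6 and 7.37 to 17.6 TPM in BALB/c. Six3, a homeobox factor of the indirect pathway lineage, stood at 17.9, 2.29 and 0.077 TPM in B6 controls and at 20.3, 13.1 and 8.19 TPM in B6 CRS animals. In BALB/c, Six3 reached 1 TPM in animal 9 of the controls alone, at 2.09 TPM. Isl1, a factor of direct pathway neurons, was listed at 0 in 3 libraries, namely B6 control animal 9, BALB/c control animal 10 and BALB/c CRS animal 12, and reached 8.94 TPM in B6 CRS animal 12. The retinoid receptors Rarb and Rxrg spanned 5.86 to 43.6 and 5.15 to 47.6 TPM in B6, and 2.94 to 6.39 and 5.46 to 8.86 TPM in BALB/c. Foxp2 lay between 2.44 and 12.0 TPM and Ebf1 between 0.53 and 2.59 TPM over the 12 libraries. In the GENCODE M21 annotation, exons of Rarb overlap those of Top2b on the other strand, Gnal those of Mppe1 and Six3 those of its antisense transcript, and Foxp1 shares exons with predicted genes on its own strand. Whether strand was used in quantification is not given in the sources used here, so these values are uncertain to that extent.

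**Figure D2:**
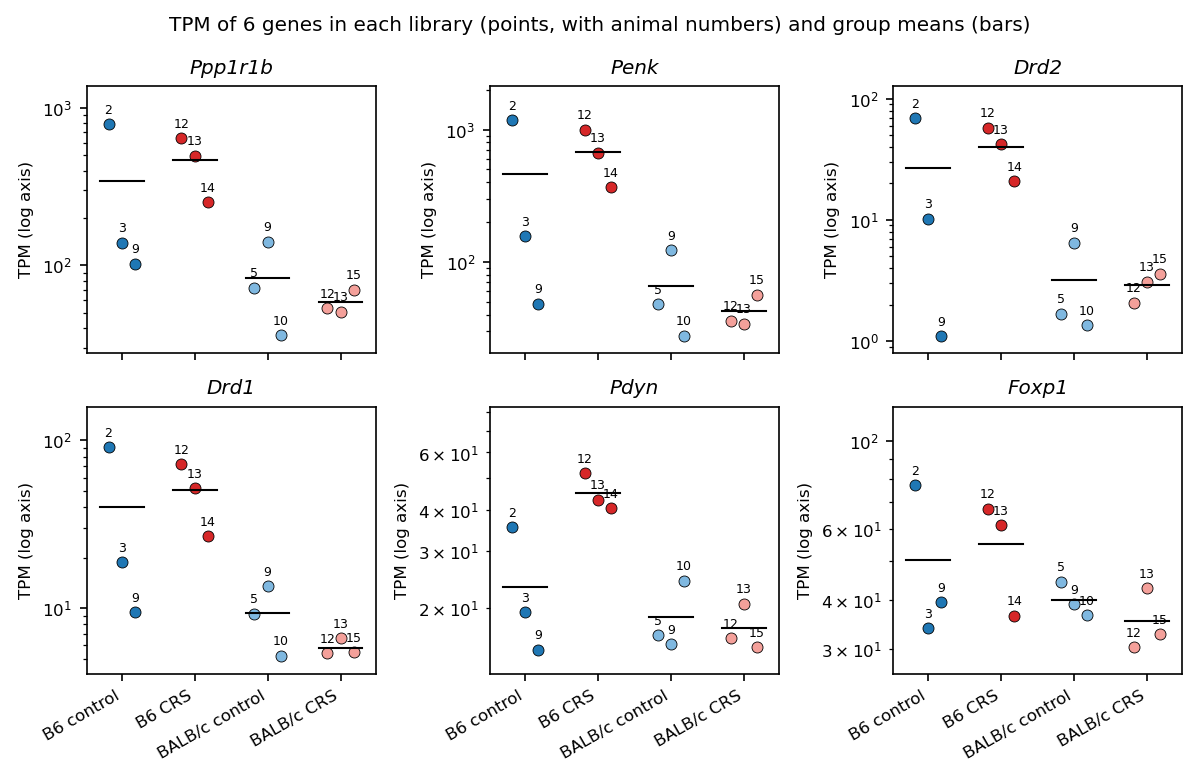
TPM on a logarithmic axis for Ppp1r1b, Penk, Drd2, Drd1, Pdyn and Foxp1 in each library (points, with animal numbers), with bars at the arithmetic group means of 3 libraries. B6 control animals spread from 1.09 to 69.1 TPM for Drd2 and from 33.9 to 77.2 TPM for Foxp1, while the 3 B6 CRS animals stay above all BALB/c animals for every gene shown except Foxp1.

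Promoter sequence was available from RefSeq (GRCm38.p6) for 23 of the 33 genes, as 33 windows of 300 bases that run from 250 bases before the annotated start to 50 bases from it. A total of 9 motifs was searched on both strands. The full cyclic AMP response element TGACGTCA occurred in 1 of the 33 windows, that of Gpr6, and in 1.79% of all 32851 windows of the table. Its shorter core TGACG, which overlaps the full element in Gpr6, occurred in 6 of 33 windows (Tac1, Foxp1, Gpr6, Gng7, Ebf1 and Isl1) and in 20.8% of all windows. The retinoic acid response element of the DR5 type occurred in 1 window, that of Rarb, where it lies 53 to 37 bases before the start, and in 0.0974% of all windows. The following stretches are shown as examples that hold the full cyclic AMP element (Gpr6), its shorter core only (Isl1) or the DR5 element (Rarb), with the matched bases in capitals. The stretch of Gpr6 is chr10:41072301-41072490, that of Isl1 chr13:116309699-116309888 and that of Rarb chr14:16575507-16575536, each on the minus strand and written 5′ to 3′.
Gpr6: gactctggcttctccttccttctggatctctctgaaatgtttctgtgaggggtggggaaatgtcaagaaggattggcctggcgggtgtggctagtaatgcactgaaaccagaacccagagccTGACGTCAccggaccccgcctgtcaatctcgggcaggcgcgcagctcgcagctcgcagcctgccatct
Isl1: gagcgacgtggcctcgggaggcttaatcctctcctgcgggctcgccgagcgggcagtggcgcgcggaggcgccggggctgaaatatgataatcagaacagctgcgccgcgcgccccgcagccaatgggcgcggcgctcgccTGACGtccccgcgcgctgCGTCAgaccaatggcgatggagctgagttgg
Rarb: cgggaagGGTTCACCGAAAGTTCActcgca

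The other motifs are given by their counts. The core AGGTCA of retinoid receptor sites was found in 2 of 33 windows (Rxrg and Actn2) and in 16.3% of all windows, and the TATA box TATAAA in 3 (Rgs9, Bcl11b and Pde1b) and in 13.6%. The GC box GGGGCGGGG was found in 8 windows, among them those of Drd1, Drd2 and Adcy5, against 11.4% of all windows. The AP-1 site TGACTCA, the Egr site GCGGGGGCG and the site of MEF2 were found in 0 of the 33 windows, against 5.2%, 2.91% and 0.164% of all windows. These matches describe letters in a window and were not tested as binding sites.

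With BALB/c CRS compared with B6 CRS, 22 of the 33 genes were lower in BALB/c and 0 were higher (limma, Benjamini-Hochberg adjusted p under 0.05 over all tested genes), whereas 7.7% of all tested genes were called in either direction, 5.33% as lower and 2.37% as higher. Unadjusted p-values were under 0.05 for 30 of 33, against 23.8%, and all 33 estimates were below 0, against 58.7%. The median difference of the 33 genes was -2.12 on the log2(TPM + 1) scale, beside -0.06 over all tested genes. All 3 BALB/c CRS animals lay below all 3 B6 CRS animals for 31 of 33 genes, against 20% of tested genes, the exceptions being Foxp1 and Ebf1. Among the 22 called genes, Gpr149 reached 1 TPM in 0 BALB/c libraries, and Gpr6 and Six3 in 1 each. Those genes passed the filter only through B6, where they were high, so their calls are not independent of the filter.

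By role, the lower genes under CRS were 4 of 5 receptors, 3 of 3 peptide precursors, 8 of 8 genes of cyclic nucleotide signalling, 3 of 7 genes of channels, synapse and cytoskeleton, 4 of 9 transcription factors and 0 of 1 enzyme. Penk fell from 680.4 ± 317 TPM in B6 CRS to 42.2 ± 12.4 TPM in BALB/c CRS animals (SD, n = 3 each), a difference of -3.90 on the log2 scale (SE 0.90, adjusted p 0.0233, limma). Ppp1r1b was at 465 ± 197 TPM in B6 and 58.2 ± 10.5 TPM in BALB/c (log2 difference -2.89, SE 0.67, adjusted p 0.024, limma). Drd1 was at 50.3 ± 22.7 and 5.82 ± 0.69 TPM (log2 difference -2.81, SE 0.63, adjusted p 0.0208, limma). The smallest adjusted p-values belonged to Strip2 (log2 difference -1.86, adjusted p 0.00562), Scn4b (-4.27, adjusted p 0.00595), Tac1 (-2.65, adjusted p 0.00836) and Pdyn (-1.33, adjusted p 0.0107, all limma). The largest difference was that of Adora2a, -4.43 (SE 1.07, adjusted p 0.0289, limma). Drd2 did not pass, with 40.3 ± 18.4 TPM in B6 and 2.92 ± 0.78 TPM in BALB/c (log2 difference -3.30, SE 0.94, adjusted p 0.0533, limma). The other genes not called were Actn2, Syndig1l, Foxp1, Foxp2, Isl1, Ebf1, Sh3rf2, Bcl11b, Ido1 and Kcnip2, with log2 differences from -3.66 in Syndig1l to -0.47 in Ebf1.

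The number of calls under CRS depended on single libraries. Without B6 CRS animal 12 it was 3 and without B6 CRS animal 13 it was 7. Without BALB/c CRS animals 12, 13 or 15 it was 4, 5 or 10, and in the other 7 fits that left out 1 library it was 15 to 30. Calls over all tested genes ran from 539 to 1852 in these fits, against 1264 with every library, and the median difference of the 33 genes from -2.43 to -1.96.

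Among controls the differences were smaller than under CRS and depended on which B6 animals were kept. The fit gave each gene 1 spread for all 4 groups, so its SE was the same in both comparisons. None of the 33 genes passed (limma), against 4.73% of all tested genes, and 8 of 33 had an unadjusted p under 0.05, against 18.7%. All 33 estimates were below 0, as were 67.7% of all estimates, with a median of -1.04 beside -0.10 over all tested genes. The lowest p-values were those of Scn4b (70.4 ± 89.5 TPM in B6 and 8.99 ± 6.33 TPM in BALB/c, log2 difference -2.23, SE 0.77, adjusted p 0.134, limma), Rasd2 (-1.38, SE 0.55, adjusted p 0.204, limma) and Ppp1r1b (-1.63, SE 0.67, adjusted p 0.218, limma). The groups did not overlap for 4 genes, Adcy5, Rasd2, Scn4b and Gpr149, with BALB/c lower, against 18.7% of tested genes. Without B6 control animal 9, 11 of the 33 genes passed and the median was -1.71, while 1389 of 16298 tested genes passed against 777 of 16423 with every library. Without B6 control animal 2 none passed, against 497 of 16284 tested genes, and the median was -0.30, and without BALB/c control animal 9 there was 1 call.

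Averaged over handling and CRS, 29 of the 33 genes were lower in BALB/c (limma), and 0 were higher, against 18.4% of tested genes called in either direction, 14.3% lower and 4.05% higher, with a median of -1.60 beside -0.08. The genes not called were Actn2 (adjusted p 0.0524), Foxp1 (0.184), Kcnip2 (0.19) and Ebf1 (0.229, all limma). Besides Gpr149, Gpr6 and Six3, the called genes Sh3rf2, Ido1 and Isl1 passed the filter only through B6. They reached 1 TPM in 0, 0 and 1 BALB/c libraries. Scn4b had the smallest adjusted p (log2 difference -3.25, SE 0.54, adjusted p 0.00184, limma), followed by Tac1 (-1.83, SE 0.36, adjusted p 0.0047, limma). Here Drd2 passed (-2.51, SE 0.67, adjusted p 0.0222, limma). All 6 BALB/c animals lay below all 6 B6 animals for Rasd2 and Scn4b only, against 6.94% of tested genes. The count was 22 to 30 when each library was left out in turn. With the TPM columns rescaled by the median of ratios, the median of all tested genes shifted by 0.11 in the comparison of controls, and the share of all calls that were lower went from 71.2% to 54.1% in controls, from 69.2% to 53.2% under CRS and from 78% to 53.7% averaged. The 33 genes stayed below 0 in these 3 comparisons under that scaling, with medians of -0.93, -2.05 and -1.50.

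**Figure D3:**
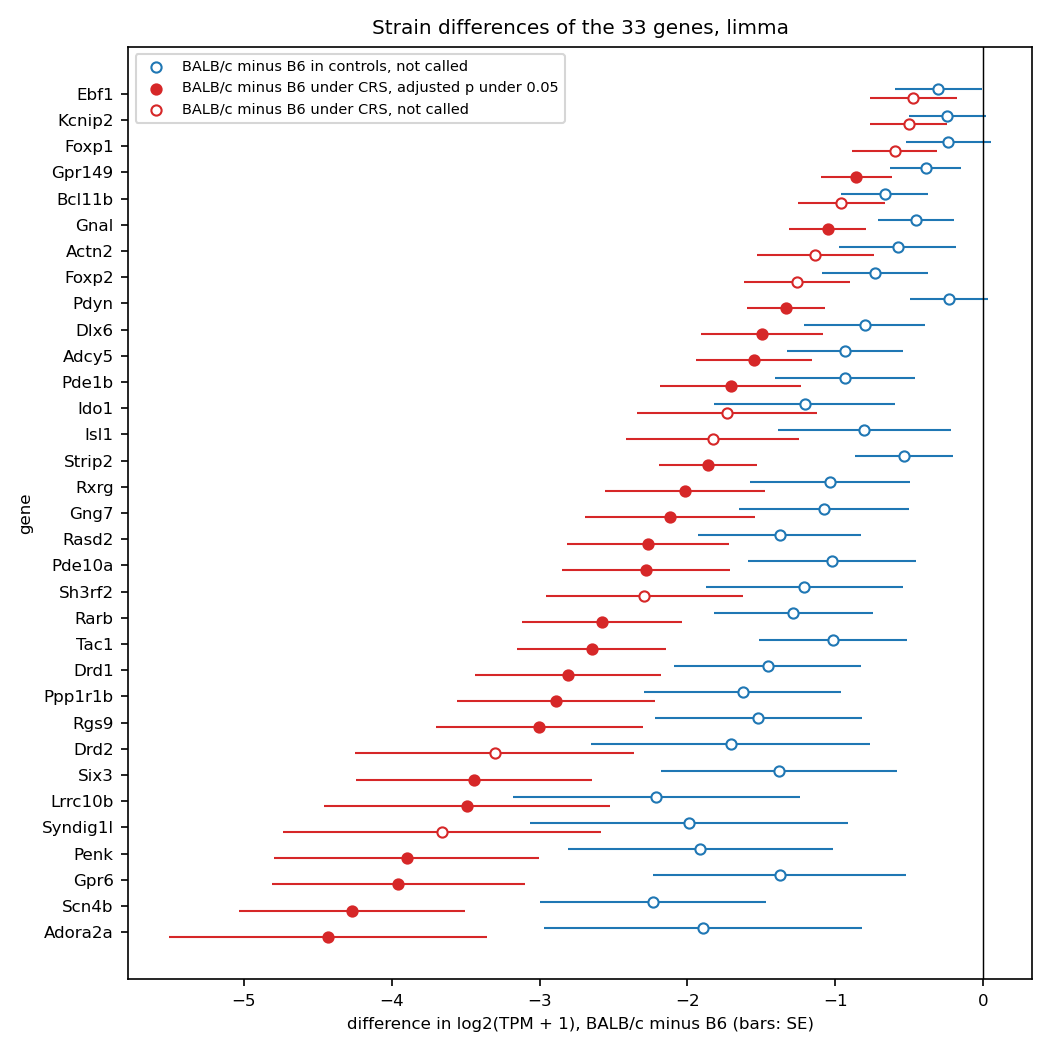
Points are BALB/c minus B6 differences in log2(TPM + 1) from limma, for each of the 33 genes, in controls (blue) and under CRS (red), with bars of 1 SE. Filled points passed an adjusted p of 0.05. All points are below 0, and the filled points, 22 in number, belong to CRS animals.

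Members of the indirect pathway list differed more than those of the direct pathway list in their medians. Under CRS, 4 of 5 indirect pathway genes (Adora2a, Penk, Gpr6 and Six3) were lower in BALB/c with a list median of -3.90, and 3 of 5 direct pathway genes (Drd1, Tac1 and Pdyn) with a median of -1.83. Of all tested genes, 5.33% were called lower, with a median of -0.06. Gpr6 and Six3 reached 1 TPM in 1 BALB/c library each. Whether the 2 lists differ was not tested, and the log2(TPM + 1) scale shrinks differences in genes near 1 TPM. Ratios within a library also varied. The TPM ratio of Drd1 to Drd2 was 1.22 to 1.28 in the 3 B6 CRS animals and 1.32 in B6 control animal 2, but 1.84 in B6 control animal 3 and 8.61 in B6 control animal 9. It was 2.07 to 5.50 in BALB/c controls and 1.51 to 2.60 in BALB/c CRS animals. The ratio of Penk to Tac1 was 6.15, 2.49 and 1.76 in B6 control animals 2, 3 and 9 and 6.26, 4.31 and 2.23 in B6 CRS animals 12, 13 and 14, and was 1.10 to 2.37 in BALB/c. B6 control animal 9 and B6 CRS animal 14 lay inside the BALB/c range.

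Restraint itself gave no call among these genes in either strain. In B6, CRS compared with handling called 0 of 33 genes (limma), against 0% of all tested genes, and 7 of 33 had an unadjusted p under 0.05, against 4.82%. All 33 estimates were above 0, against 49.9% of tested genes, with a median of 0.97 beside 0.00. The lowest p-values were those of Pdyn, at 23.3 ± 10.8 TPM in controls and 45.1 ± 5.91 TPM after CRS (log2 difference 1.01, SE 0.26, adjusted p 1, limma), Strip2 (1.19, SE 0.33, adjusted p 1, limma) and Tac1 (1.19, SE 0.50, adjusted p 1, limma). The 3 CRS animals lay above the 3 controls for Pdyn and Strip2 alone, 2 of 33, against 4.63% of tested genes. This estimate rested on the B6 controls: without animal 2 the median was 1.82 and Strip2 passed (1.71, adjusted p 0.00704, limma), and without animal 9 the median was 0.34.

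In BALB/c, CRS called 0 of 33 genes (limma), against 0.00609% of tested genes, and 0 of 33 had an unadjusted p under 0.05, against 3.03%. The median was -0.13 beside 0.05 over all tested genes, and 11 estimates were above 0, against 62.5% of tested genes. Scn4b had the lowest p, at 8.99 ± 6.33 TPM in controls and 3.03 ± 0.39 TPM after CRS (log2 difference -1.10, SE 0.77, adjusted p 1, limma), followed by Foxp2 (-0.41) and Tac1 (-0.44, both adjusted p 1, limma). For the difference between the 2 strains' responses (interaction), 0 of 33 genes passed (limma), against 0%, and 3 had an unadjusted p under 0.05, against 2.7%. All 33 estimates were below 0, against 40.3%, with a median of -1.08 beside 0.05. Those of lowest p were Pdyn (-1.10, SE 0.37), Strip2 (-1.32, SE 0.47) and Tac1 (-1.63, SE 0.71), each with an adjusted p of 1.00 (limma). Without B6 control animal 2, Strip2 passed (-1.84, adjusted p 0.0326, limma) and the median was -1.87, and without B6 control animal 9 it was -0.40. The CRS estimate in B6, the strain differences and the interaction share libraries, so their common direction is not independent evidence. Averaged over strains, CRS called 0 of 33 (limma), against 0.00609%, with 2 unadjusted p-values under 0.05 (Pdyn and Strip2), against 5.17%. There 30 of 33 estimates were above 0, against 58% of tested genes, with a median of 0.41 beside 0.02, and the lowest p-values were those of Pdyn (0.46), Strip2 (0.53) and Dlx6 (0.62, each adjusted p 0.946, limma).

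Animals of the same group differed from each other in these genes far more than in most genes. The residual SD within groups had a median of 0.82 on the log2 scale for the 33 genes and of 0.21 for all tested genes. It exceeded 0.60, the 95th percentile of all tested genes, for 22 of 33 genes, against 5.01%, and the median of all tested genes for 33 of 33, against 50%. Syndig1l and Adora2a had the highest residual SD, at 1.60 each, and Gpr149 the lowest, at 0.27. Without B6 control animal 2 the median was 0.45 and 12 genes exceeded the 95th percentile. With a pseudocount of 0.1 in place of 1, 11 did.

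In 3 of the 4 groups, 28 or more of the 33 genes shared a highest animal or an order of animals. B6 control animal 2 was the highest of its group for 33 of 33 genes, against 30.2% of tested genes, and the order 2, 3, 9 held for 28 of 33, against 19.5%. In B6 CRS animals the order 12, 13, 14 held for 28 of 33, against 9.99%, and in BALB/c controls animal 9 was highest for 29 of 33, against 23.3%. In BALB/c CRS animals the genes were more divided: animal 15 was highest for 18, animal 13 for 11 and animal 12 for 4 of the 33 genes. The shares of all tested genes for these counts are not given here, so they are description only. B6 control animal 2 held at least 4 times the TPM of B6 control animal 9 for 23 of 33 genes, against 4.23%. The ratio between these mice of 1 group was 231 for Six3, 89.5 for Gpr6, 63.2 for Drd2, 24.4 for Penk and 7.67 for Ppp1r1b, and 1.96 for Foxp1 and 1.71 for Kcnip2. Six3 and Gpr6 stood at 0.077 and 0.38 TPM in B6 control animal 9, so the size of their ratios is uncertain. B6 control animal 9 lay within the BALB/c range for 24 of 33 genes, against 56.2%, while B6 control animal 2 lay above all 6 BALB/c animals for 33 of 33, against 29.8%. The highest of the 12 libraries was B6 control animal 2 for 24 genes, against 11.3%, B6 CRS animal 12 for 8, against 7.71%, and B6 CRS animal 14 for Gpr149.

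**Figure D4:**
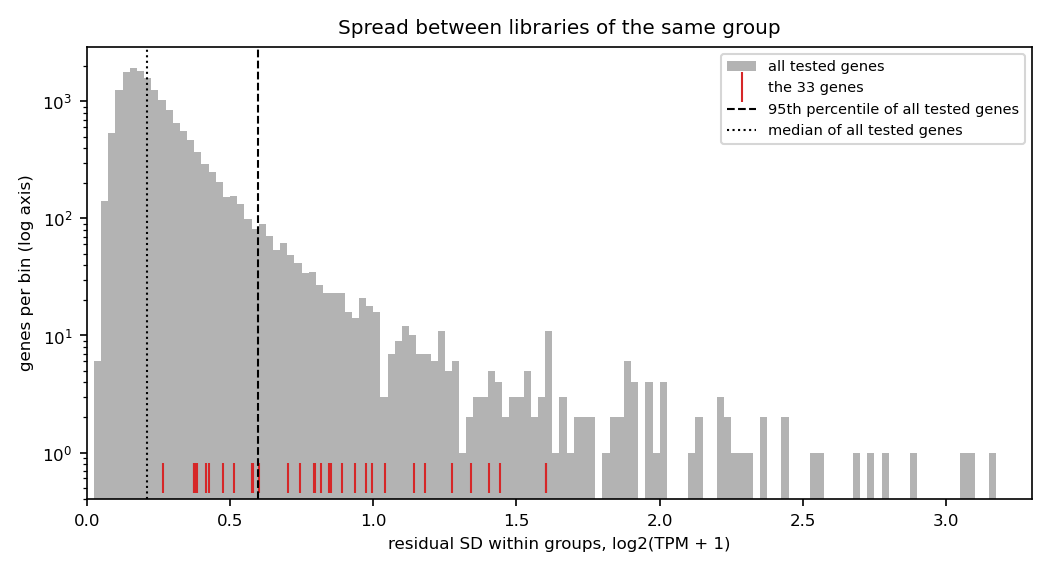
The histogram counts all 16423 tested genes (logarithmic vertical axis) by residual SD within groups on the log2(TPM + 1) scale, with red ticks for the 33 genes. The ticks all lie to the right of the dotted line at the median of all tested genes, 0.21, and 22 lie beyond the dashed line at the 95th percentile, 0.60.

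A separate list of 20 other striatal neuron genes, of which 18 were tested, was also lower for most members. Averaged over treatments, 12 of 18 were lower in BALB/c and 1, the cannabinoid receptor gene Cnr1, was higher (0.43, adjusted p 0.0499, limma), with a list median of -0.95, where 14.3% of all tested genes were called lower. Among CRS animals, 7 of 18 were lower in BALB/c and 0 higher, where 5.33% of all tested genes were called lower. Of the called genes, Zfp503 reached at most 0.66 TPM in BALB/c. Slc35d3 reached 1 TPM there in control animal 9 alone, and Cd4 in control animal 9 and CRS animal 12 alone. They passed the filter only through B6, so their calls are not independent of it. The 2 most abundant genes of the list, Arpp21 and Rgs4, stood at 235 to 623 and at 117 to 272 TPM in B6 and at 237 to 275 and at 135 to 229 TPM in BALB/c. Neither was called in any comparison.

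The wider dopamine and cyclic AMP pathway, 39 tested genes outside the 33, had a median near that of all genes. Averaged over treatments, 7 of 39 were lower in BALB/c (Drd5, Gnb5, Pde4b, Pde7b, Ppp1ca, Ppp3ca and Ric8b) and 0 higher, with a median of -0.04 beside -0.08 over all tested genes. That count is near the 14.3% of all tested genes that were called lower. Drd5 reached at most 0.65 TPM in BALB/c and passed the filter only through B6, so its call is not independent of it. Among CRS animals, Pde7b, a phosphodiesterase that is also on the list of other striatal genes, had a lower level in the BALB/c mice (log2 difference -2.40, adjusted p 0.0101, limma), as did Ric8b, a folding factor for Golf (-0.69, adjusted p 0.049, limma). Of 9 opioid and tachykinin receptor genes, Oprk1, the receptor for dynorphin, was lower in BALB/c in controls (-1.37, adjusted p 0.043), under CRS (-1.73, adjusted p 0.0113) and averaged (-1.55, adjusted p 0.00126, all limma). Oprk1 stood at 6.41, 2.45 and 6.88 TPM in B6 control animals 2, 3 and 9, at 5.43, 6.05 and 2.88 TPM in B6 CRS animals 12, 13 and 14 and at 0.42 to 2.26 TPM in BALB/c. It reached 1 TPM in BALB/c only in control animal 9 and CRS animal 13, so its calls are not independent of the filter. Oprd1, an enkephalin receptor, was higher in BALB/c averaged over treatments (0.46, adjusted p 0.021, limma).

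Markers of some other cell types also differed between the strains. The summed TPM of 10 oligodendrocyte and myelin markers was 2598 to 9961 in B6 controls, 2815 to 8072 in B6 CRS animals, 491 to 3168 in BALB/c controls and 556 to 1493 in BALB/c CRS animals, and averaged over treatments 10 of 10 were lower in BALB/c, where 14.3% of all tested genes were called lower. By library it did not follow the 33 genes throughout: it was 9961, 6046 and 2598 in B6 control animals 2, 3 and 9 and 5146, 8072 and 2815 in B6 CRS animals 12, 13 and 14. For CRS in B6 the median of these markers was -0.16, beside 0.97 for the 33 genes. The summed TPM of 12 cortical excitatory markers ran from 1321 in B6 CRS animal 12 to 3537 in B6 control animal 9, with 2204 to 2680 in BALB/c controls and 2071 to 2399 in BALB/c CRS animals. Of these, 3 of 12, among them Cux2 and Neurod6, were higher in BALB/c averaged over treatments, where 4.05% of all tested genes were called higher. The 5 markers of cholinergic interneurons, a striatal cell type, summed to 17.9 TPM in B6 control animal 2, to 5.15 to 17.1 TPM in B6 CRS animals, to 1.73 and 0.31 TPM in B6 control animals 3 and 9 and to 0.43 to 1.72 TPM in BALB/c. Their defining gene Chat was listed at 0 in B6 control animal 9. Averaged over treatments, 2 of the 4 tested (Slc5a7 and Lhx8) were lower in BALB/c, where 14.3% of all tested genes were called lower. Slc5a7 and Lhx8 reached at most 0.69 and 0.40 TPM in BALB/c. They passed the filter only through B6, so their calls are not independent of it.

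Of 8 GABAergic interneuron markers, Gad1, Gad2 and Slc32a1, which medium spiny neurons also express, were lower in BALB/c averaged over treatments and Vip was higher. Of all tested genes, 14.3% were called lower and 4.05% higher. The list median was -0.15 beside -0.08 over all tested genes, with summed TPM of 954 to 1350 in B6 and 815 to 1033 in BALB/c. In the same comparison, with 14.3% of all tested genes called lower, 3 of 7 astrocyte, 2 of 6 microglia, 3 of 5 choroid plexus, 1 of 4 olfactory bulb and claustrum and 1 of 3 septal markers were lower in BALB/c and 0 of these 5 lists' genes were higher. Each of these counts rests on 1 to 3 genes. Of the choroid plexus genes called, Otx2 reached at most 0.30 TPM in BALB/c. Folr1 reached 1 TPM there in control animal 9 alone, and Clic6 in CRS animals 13 and 15 alone. They passed the filter only through B6, so their calls are not independent of it. The septal markers summed to 13.1 to 49.8 TPM in B6 controls, 29.6 to 118 TPM in B6 CRS animals and 11.6 to 51.7 TPM in BALB/c. No gene of these lists was called for CRS or the interaction (limma).

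With the mean log2 level of the other striatal neuron genes as a covariate, added after the data were seen, 0 of the 33 genes were called under CRS or averaged over treatments. The median strain differences were then -0.06 and -0.11, and the median residual SD was 0.29. With the myelin markers as the covariate, the calls were also 0 and 0, and the medians were -0.86 and -0.47. Calls over all tested genes fell too, from 1264 to 240 and 256 under CRS with the covariates. Averaged over treatments they fell from 3021 to 506 and 373, so the loss of calls was not confined to the 33 genes. A covariate that differs between the strains takes up part of any strain difference, so these values describe the fit and name no cause. The part of cell composition in the strain difference was not tested.

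**Figure D5:**
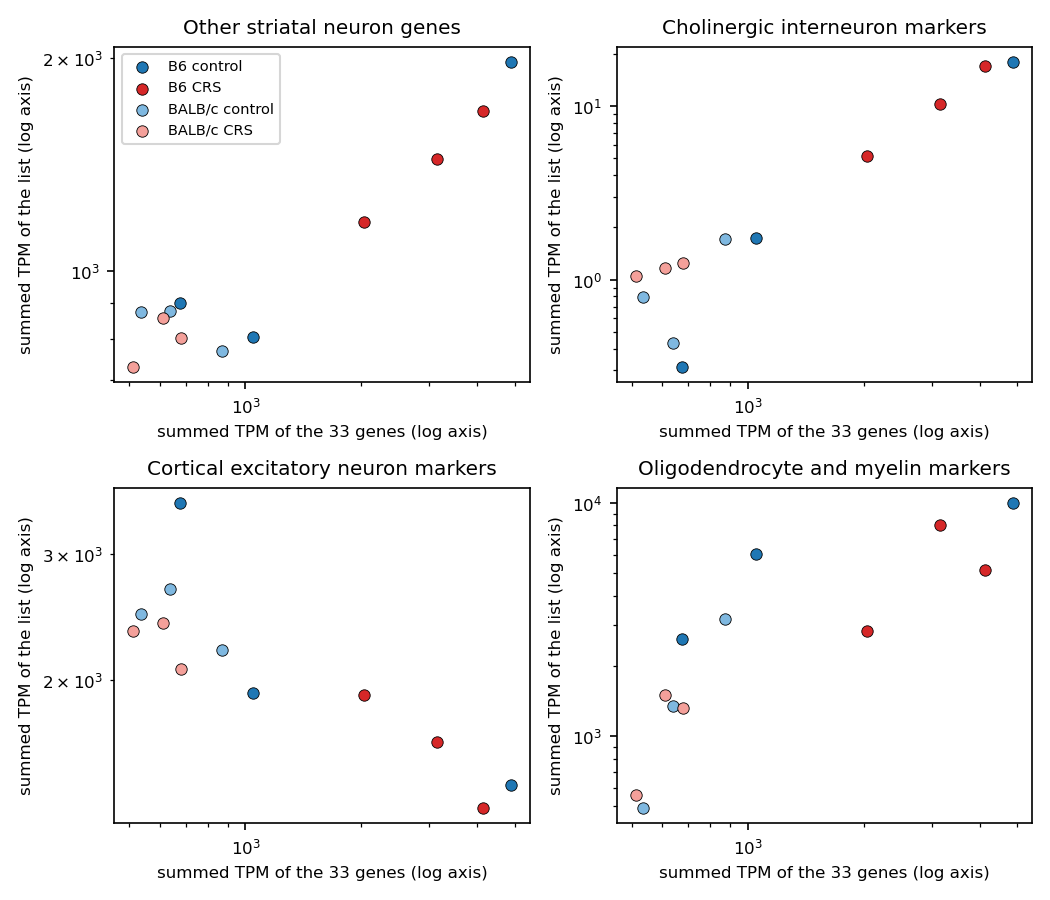
Each point is a library, coloured by group. The horizontal axis is the summed TPM of the 33 genes and the vertical axis that of another marker list, both logarithmic. Other striatal neuron genes and cholinergic markers are highest in the 4 libraries with the highest sums of the 33 genes (2036 to 4886), and excitatory markers are lowest there.

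Over the 12 libraries, after subtraction of each strain's mean, the tested genes outside the 33 whose log2 level was most like the mean of the 33 included Slc35d3 (Pearson r 0.99), Foxo1, Ccdc187, Pcp4l1, Prkch, Cbr3, Slc5a7, Tgfa and Serpina9 (r 0.96 to 0.98 for the last 8). Slc35d3 and Slc5a7 are on the lists above. Slc35d3 stood at 12.0, 1.68 and 0.21 TPM in B6 controls and at 11.6, 8.81 and 4.15 TPM in B6 CRS animals, and at 0.44 to 1.70 TPM in BALB/c. The most negative were Dkkl1 (r -0.96), Tmem176a, Rtn4r, Cckbr and Adamts15 (-0.95 to -0.94). Rtn4r, a receptor for myelin-derived inhibitors of axon growth, stood at 23.1, 59.4 and 80.4 TPM in B6 controls, at 22.0, 41.6 and 44.5 TPM in B6 CRS animals and at 57.3 to 97.2 TPM in BALB/c. These r describe the same 12 libraries and carry no test.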

How the data were processed

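RNA from 12 tissue punches was sequenced as paired reads of 150 bases from a stranded mRNA kit, per the labels' protocols. The authors deposited 1 table of TPM values per transcript with gene names, made with cutadapt 2.9, Salmon and GRCm38 per the submitters' processing notes. Strand and annotation settings are not given in the sources used here, and TPM keeps no depth, so counting error could not be estimated. Rows were summed by gene name: 147902 rows gave 55678 names, with 1 to 31 rows for each of the 33 genes.

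The 16423 genes that reached 1 TPM in 3 or more libraries were fitted with limma 3.58.1 in R 4.3.3 on log2(TPM + 1), with 4 group means, 8 residual degrees of freedom, a variance trend and Benjamini-Hochberg adjustment over all genes. Fold changes on this scale understate changes of low genes. Strain differences are BALB/c minus B6 and CRS differences are CRS minus control. Groups came from the labels. No single-value test was run: 3 animals against 3 cannot go below p = 0.1 in an exact permutation test. Summaries used Python 3.11.15, numpy 2.4.6 and pandas 2.3.3, and the fit was tested on simulated data.

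The 33 genes and all marker lists were chosen with earlier results of these data known, so a list's direction is not independent support. Any of the 33 genes could be named. Statistics are given for called genes or, where none was called, for the 3 of lowest p. Of other lists, called genes and the 2 most abundant could be named, and the 10 most positive and 5 most negative correlations with the mean of the 33, without predicted genes. Some genes that this rule would name are not reported here. The 21 alternatives changed the pseudocount, filter, scaling, variance trend, replicate block or a covariate, or left out 1 library; the covariates were chosen after seeing the data.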

Additional observations from a re-analysis of the deposited data

How the results depend on the processing

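For the strain difference under CRS the called genes numbered 22 as reported, 6 without a filter, 6 with the replicate block, 16 with median-of-ratios scaling, 17 after rescaling without mitochondrial genes or without the variance trend, and 19 with a pseudocount of 0.1. Over all tested genes, 389 were called higher and 875 lower as reported. The counts were 653 and 741 with median-of-ratios scaling, 501 and 813 after rescaling, and 370 and 797 with that pseudocount. The replicate block gives the numbers 9, 12 and 13, which name different animals of different strains, a term of their own; deviations of same-numbered animals correlated at -0.24, -0.03 and -0.04, and no animal correlated best with its own number. Averaged over treatments, 24 genes were called without a filter or with the block and 28 with the other scalings. Over all tested genes, averaged calls numbered 3021 of 16423 as reported, 2660 of 30737 without a filter and 2455 of 16423 with the block. They numbered 3191 of 16400 with median-of-ratios scaling and 3027 of 17601 after rescaling. Under CRS, all-gene calls were 1264 of 16423 as reported, 969 of 30737 without a filter and 750 of 16423 with the block. The falls without a filter and with the block were thus not confined to the genes described here.

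With the other striatal genes as covariate, called genes numbered 0 under CRS and 0 averaged, and medians were -0.0186 for CRS in B6, 0.0094 for strain in controls, -0.0604 under CRS, 0.0143 for the interaction and -0.11 averaged, with a residual SD of 0.29. Under CRS the sign turned for Adcy5 (0.01), Gng7 (0.0911), Lrrc10b (0.20), Pde10a (0.0168), Pde1b (0.20) and Rxrg (0.10), and averaged for Drd2 (0.21), Gng7 (0.0546), Ido1 (0.28), Isl1 (0.12), Pde10a (0.0635), Pde1b (0.10), Rxrg (0.0556), Sh3rf2 (0.20) and Syndig1l (0.23). With the myelin markers as covariate, counts were 0 and 0, medians were 0.10 in controls, -0.86 under CRS and -0.47 averaged, and the sign turned for Ppp1r1b in controls (0.0843) and Syndig1l averaged (0.0597). The cause was not tested.

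When each library was left out in turn, called genes numbered 0 to 1 for CRS in B6, 0 to 0 for CRS in BALB/c, 0 to 11 for strain in controls, 3 to 30 under CRS, 0 to 1 for the interaction, 0 to 0 for CRS averaged and 22 to 30 for strain averaged. With every library, the shares of all tested genes called were 0%, 0.00609%, 4.73%, 7.7%, 0%, 0.00609% and 18.4% in that order. Calls over all tested genes also changed when a library was left out, as given above for controls and under CRS. Medians ran from 0.34 to 1.82, -0.19 to 0.03, -1.71 to -0.30, -2.43 to -1.96, -1.87 to -0.40, 0.13 to 0.79 and -1.96 to -1.19 in the same order, and the residual SD from 0.45 to 0.87. Foxp2 for CRS in BALB/c ran from -0.79 to 0.076, turning sign without BALB/c control animal 9. Over all tested genes, calls under CRS numbered 1264 as reported, 702 with a mean of at least 5 TPM, 750 with the block and 240 and 256 with the covariates; in controls 777, 437, 496 and 284 (filter, covariates); averaged 3021, 1929, 506 and 373. The depth behind TPM is unknown, which limits what can be said of genes near 1 TPM.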
